A study of Mus musculus with 6 samples.

Results

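Death receptor signalling was described through 10 genes, Fas, Fasl, Fadd, Cflar, Tnfrsf1a, Tnfrsf10b, Tradd, Ripk1, Traf2 and Daxx, in mouse blastocysts cultured with oviductal extracellular vesicles (oEVs). The genes were picked by symbol, and all 10 were found among the 55774 entries of the expression table. The study asked whether vesicles from the Fallopian tubes of women with endometriosis alter the embryo. Wild-type 2-cell embryos of ICR mice developed to blastocysts in CZB medium to which vesicles of women with endometriosis (oEV-EMT) or vesicles of control women (oEV-ctrl) had been added. The labels give uterine fibroids for the control donors, while the methods describe them differently. Each group had 3 libraries, each made from a pool of 10 blastocysts, and polyadenylated RNA was sequenced. No embryos cultured without vesicles were sequenced, so both groups had received human vesicles. Nothing in the labels ties a library to a donor or a culture, so p-values measure the spread between pools, which may be technical. In whole blastocysts, fewer cells of a type and less RNA per cell cannot be told apart.

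Fas ligand and the TNF family ligands bind receptors whose cytoplasmic death domains recruit adaptor proteins. Fas and the TRAIL receptor recruit FADD, which brings in caspase-8, and the caspase-8 homologue encoded by Cflar (c-FLIP) holds that caspase in check. The TNF receptor recruits TRADD, RIPK1 and TRAF2, a complex that switches on NF-κB and can otherwise turn to apoptosis or necroptosis. Apoptosis is a normal event in the blastocyst, where it removes cells mainly from the inner cell mass.

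The values are FPKM, fragments per kilobase of transcript and 1000000 fragments, and are therefore scaled for transcript length. Comparisons of level between genes are still rough, since length-linked differences between libraries remained and genes share unequal parts of their sequence with others. Read totals are not given in the sources used here. The spacing of low values put the relative depth of the libraries between 1 and 2.06, with oEV-ctrl 1 the shallowest and oEV-EMT 1 the deepest, but only 43.4% to 55.2% of these values lay within 0.1 of a whole step, and reads could not be recovered. A single unannotated entry took 15.3% to 19.0% of the sum of a library in oEV-EMT and 19.7% to 31.5% in oEV-ctrl, and mitochondrial genes 3.93% to 4.84% and 5.96% to 7.45%, both without overlap between the groups. Genes that reached an FPKM of 1 in 3 libraries or more were tested, 11924 in all. Their median log2 fold change of oEV-EMT against oEV-ctrl was 0.17 on the log2(FPKM + 1) scale. On that scale 0 genes passed an adjusted p of 0.05 together with a log2 change of 1 (0.0%, limma with Benjamini-Hochberg adjustment). At the same thresholds, the study reported differentially expressed genes in both directions with the count model DESeq2. Its counts were not used here, so the 2 results rest on unlike measures. In limma, at an unadjusted p of at most 0.05, there were 1527 genes higher and 304 lower, 12.8% and 2.55% of all tested genes. This split was 773 to 771 after median-of-ratios scaling and 708 to 804 after upper quartile scaling. oEV-EMT 1 held the highest value of the 6 libraries for 37.4% of the tested genes. The blastocyst markers fitted the label, since the 9 trophectoderm genes summed to 3098 to 4863 FPKM and the 6 primitive endoderm genes to 132 to 259, both sums with overlap between the groups. The trophectoderm sum is mostly Krt8 and Krt18. Of its 9 genes, Elf5 (23.6 ± 4.99 against 14.6 ± 3.96, SD, n = 3 each, with overlap) was higher in oEV-EMT at an unadjusted p of at most 0.05 (limma). The primitive endoderm sum is mostly Dab2, and 2 of its 6 genes, Gata4 (8.79 ± 2.19 against 4.48 ± 0.517, without overlap) and Sox17 (3.13 ± 1.92 against 1.03 ± 0.626, with overlap; SD, n = 3 each), were higher in oEV-EMT at an unadjusted p of at most 0.05. The 7 epiblast genes summed to 106 to 147 in oEV-EMT and 59.2 to 103 in oEV-ctrl, without overlap. Of these, Pou5f1, Nanog and Fgf4 were each higher in oEV-EMT without overlap, at an unadjusted p of at most 0.05 (limma). Over all tested genes, 18.1% were higher without overlap. Sox2 and Esrrb had log2 fold changes of -0.32 and -0.06. The part of these marker differences in the death receptor values was not tested.

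The sequences shown first are those of Fasl, the ligand on which the study placed a separate real-time RT-PCR assay, whose data are not analysed here. The forward and reverse primers, both written 5′ to 3′, are these.
Fasl forward: caccgccatcacaaccac
Fasl reverse: ccagagccaccagaacca
In GENCODE M21, on GRCm38 (mm10), both matched the coding sequence of the transcript Fasl-201 and no other gene. The forward primer lies at chr1:161788102-161788119 and the reverse primer at chr1:161788009-161788026, both in exon 1, with an amplicon of 111 bases.

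The promoters of Fasl and its receptor Fas are shown because they are the matched ligand and receptor among the 10 genes. The 250 bases before each RefSeq start on GRCm38.p6 are written in the direction of transcription, chr1:161788496-161788745 on the minus strand for Fasl and chr19:34290409-34290658 on the plus strand for Fas. Capitals mark matches on either strand to GGG and CC with any 5 bases between them (an NF-κB type site), TGANTCA (an AP-1 type site) and GGGCGG (a GC box).
Fasl: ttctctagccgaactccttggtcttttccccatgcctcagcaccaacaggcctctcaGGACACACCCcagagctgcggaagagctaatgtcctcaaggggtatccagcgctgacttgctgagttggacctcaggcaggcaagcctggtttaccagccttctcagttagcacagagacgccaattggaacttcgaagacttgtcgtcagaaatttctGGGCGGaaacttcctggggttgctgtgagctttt
Fas: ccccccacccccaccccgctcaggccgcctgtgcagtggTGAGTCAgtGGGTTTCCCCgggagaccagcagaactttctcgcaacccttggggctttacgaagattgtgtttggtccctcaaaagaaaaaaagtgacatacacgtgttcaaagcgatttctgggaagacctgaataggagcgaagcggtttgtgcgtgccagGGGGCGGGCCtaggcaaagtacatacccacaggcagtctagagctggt
Fasl had 1 NF-κB type match and 1 GC box. Fas had 2 NF-κB type matches, the second of which overlaps its GC box, and 1 AP-1 type match. Of 32851 windows of the same length, 45.8% held the NF-κB type letters, 32.7% GGGCGG and 6.75% TGANTCA, so these matches are only a description of the letters. TATAAA was in neither window, against 12.4% of all windows. RefSeq windows were matched for 8 of the 10 genes, all but Tradd and Tnfrsf10b.

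**Figure D1:**
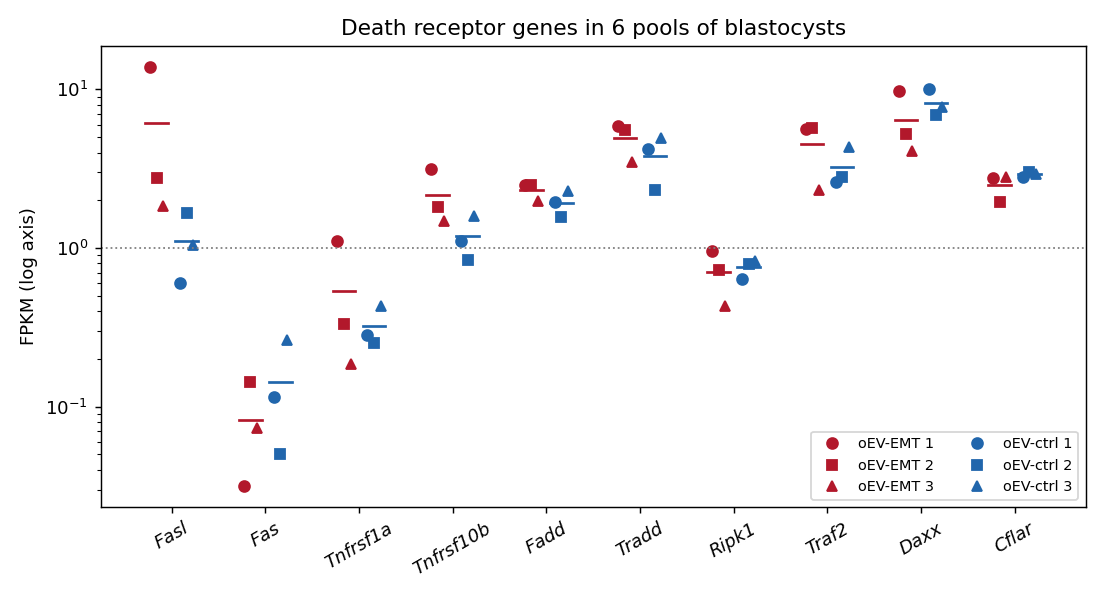
FPKM of the 10 genes in each of the 6 libraries, on a log axis, with oEV-EMT in red, oEV-ctrl in blue, a symbol for each replicate number and a line at each group mean. The dotted line is at an FPKM of 1, and the Fasl value of 13.9 in oEV-EMT 1 stands above the other oEV-EMT values, while Fas lies below 0.3 in every library.

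Fasl was the only 1 of the 10 genes with all oEV-EMT libraries above all oEV-ctrl libraries, and it was carried mostly by a single pool. Fasl (ENSMUSG00000000817, chr1:161780689-161788495, minus strand) encodes the membrane ligand of Fas, best known from cytotoxic lymphocytes. Its FPKM was 13.9, 2.78 and 1.83 in oEV-EMT 1 to 3 and 0.598, 1.66 and 1.05 in oEV-ctrl 1 to 3. The groups did not overlap, but the gap between 1.83 and 1.66 was small beside the distance from oEV-EMT 1 to the other libraries. The means were 6.16 ± 6.69 and 1.10 ± 0.536 (SD, n = 3 each), 5.58 times higher in oEV-EMT. The log2 fold change was 1.40 (SE 0.62, 95% interval -0.08 to 2.88), with an adjusted p of 0.346 in limma, so the difference did not pass. The exact two-sided permutation test gave p = 0.1, the smallest that 3 against 3 allows. Without oEV-EMT 1 the log2 fold change was 0.67 (adjusted p = 0.247, limma), under 1 on that scale. The study had named Fasl from these same libraries, so its direction here is no independent evidence.

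Markers of the lymphocytes that are known for Fasl were examined beside it. The 10 T and NK cell genes summed to 8.40 to 10.3 FPKM in oEV-EMT and 5.93 to 9.06 in oEV-ctrl, ranges that overlap. Ptprc, Gzmb, Prf1 and Klrb1c, 4 of the 10 genes, were listed at 0 in all 6 libraries. The 4 tested genes were above 0 in all 6 libraries. These were Cd3d at 1.26 to 2.86 FPKM, Cd3g at 1.17 to 2.95, Nkg7 at 0.779 to 3.32 and Lck at 0.821 to 3.06. None of these 4 had an unadjusted p of at most 0.05 (limma). The 8 cumulus and oviduct cell genes summed to 0.174 to 0.566 and 0.136 to 0.309, with Foxj1, Fshr, Amh and Ptx3 at 0 throughout. The 7 myeloid and red cell genes summed to 7.31 to 15.6 and 4.55 to 7.78, which overlap, with Itgam, Hbb-bs and Hbb-bt at 0 throughout. Of its 2 tested genes, Cd68 had an unadjusted p of at most 0.05 and was higher in oEV-EMT without overlap. Its FPKM was 6.24, 12.5 and 14.2 against 3.55, 5.89 and 6.21 (adjusted p = 0.232, limma). Over all tested genes, 12.8% were higher at an unadjusted p of at most 0.05 and 18.1% without overlap. The part of these cells in the Fasl values was not tested.

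The genes whose pattern over the 6 libraries was most like that of Fasl, by Pearson's r of log2(FPKM + 1), were Cnksr1 (0.993), Ube2m (0.991), Rhoa (0.991), Dmd (0.991) and Trmt13 (0.989). All 5 were highest in oEV-EMT 1 and lowest in oEV-ctrl 1, as Fasl was. With 6 points, of which oEV-EMT 1 is far from the rest, 451 genes had an r above 0.9.

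The 3 receptors were low, and Fas was the lowest of all 10 genes. Fas (ENSMUSG00000024778, chr19:34290666-34327772, plus strand), the receptor of Fas ligand, was at 0.0317, 0.143 and 0.0733 FPKM in oEV-EMT and 0.115, 0.0505 and 0.265 in oEV-ctrl. The groups overlapped, and oEV-EMT 1, where Fasl was highest, had the lowest Fas value. Being under the filter, Fas entered no fit, and the exact permutation test gave p = 0.6. Tnfrsf1a (ENSMUSG00000030341, chr6:125349362-125362484, plus strand), the main TNF receptor of most cells, was at 1.10, 0.331 and 0.186 FPKM against 0.285, 0.253 and 0.432. Only oEV-EMT 1 stood apart, and the other values were mixed between the groups (exact permutation p = 0.8, not fitted). Tnfrsf10b (ENSMUSG00000022074, chr14:69767472-69784411, plus strand), the death receptor for TRAIL, was the only receptor to pass the filter. Its FPKM was 3.16, 1.80 and 1.48 in oEV-EMT and 1.11, 0.844 and 1.60 in oEV-ctrl. oEV-ctrl 3 lay above oEV-EMT 3, so the groups overlapped. The means of Tnfrsf10b were 2.15 ± 0.891 and 1.18 ± 0.381 (SD, n = 3 each), with a log2 fold change of 0.51 (SE 0.25, 95% interval -0.05 to 1.06, adjusted p = 0.365, limma). Without oEV-EMT 1 that log2 fold change was 0.29.

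Among the adaptors, Fadd and Tradd overlapped between the groups. Fadd (ENSMUSG00000031077, chr7:144577318-144582463, minus strand), the adaptor that links Fas and the TRAIL receptor to caspase-8, was at 2.51, 2.49 and 1.99 FPKM in oEV-EMT and 1.97, 1.56 and 2.28 in oEV-ctrl. The groups overlapped through oEV-ctrl 3, and the log2 fold change was 0.19 (SE 0.21, 95% interval -0.28 to 0.65, adjusted p = 0.698, limma). Tradd (ENSMUSG00000031887, chr8:105258286-105264609, minus strand), the first adaptor of the TNF receptor, was at 5.86, 5.57 and 3.49 against 4.19, 2.33 and 4.91. oEV-EMT 3 lay below 2 of the oEV-ctrl libraries, and the log2 fold change was 0.33 (SE 0.28, 95% interval -0.30 to 0.96, adjusted p = 0.605, limma). Fadd shares a stretch of its exons with the antisense RNA Faddos, which was at most 0.343 FPKM in any library.

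Traf2 (ENSMUSG00000026942, chr2:25517982-25546940, minus strand), a ubiquitin ligase adaptor that connects the receptor complex to NF-κB and JNK, was at 5.66, 5.70 and 2.31 FPKM in oEV-EMT and 2.60, 2.80 and 4.34 in oEV-ctrl. oEV-EMT 1 and 2 were the highest of the 6 libraries and oEV-EMT 3 the lowest. The log2 fold change was 0.34 (SE 0.31, 95% interval -0.35 to 1.03, adjusted p = 0.633, limma), and it was 0.17 without oEV-EMT 1 and 0.68 without oEV-EMT 3. Ripk1 (ENSMUSG00000021408, chr13:34002363-34037147, plus strand), the kinase at which survival and death signalling of the TNF receptor part, was at 0.961, 0.728 and 0.433 against 0.639, 0.799 and 0.828. All 6 values were below 1 and the groups overlapped (exact permutation p = 0.8, not fitted). Of the exonic bases of Ripk1, 241 also belong to Serpinb6a on the opposite strand, which was at 114 to 143 FPKM. Whether counting used strand is not stated, so the 2 genes cannot be fully separated there.

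Daxx (ENSMUSG00000002307, chr17:33909414-33915590, plus strand), first described as a Fas-binding protein and mainly a nuclear histone H3.3 chaperone, had the highest mean of the 10 genes in both groups. Its FPKM was 9.84, 5.24 and 4.09 in oEV-EMT and 10.1, 6.93 and 7.74 in oEV-ctrl. oEV-EMT 2 and 3 lay below every oEV-ctrl library, but oEV-EMT 1 lay above 2 of them. The means of Daxx were 6.39 ± 3.04 and 8.26 ± 1.65 (SD, n = 3 each), with a log2 fold change of -0.39 (SE 0.30, 95% interval -1.05 to 0.28, adjusted p = 0.560, limma). Without oEV-EMT 1 the log2 fold change of Daxx was -0.70 (adjusted p = 0.210, limma).

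Cflar (ENSMUSG00000026031, chr1:58711508-58758884, plus strand), the inhibitor of caspase-8 activation at the receptor, was at 2.749, 1.941 and 2.812 FPKM in oEV-EMT and 2.815, 3.006 and 2.929 in oEV-ctrl. The oEV-EMT libraries were thus all under the oEV-ctrl libraries, but the closest pair differed only in the last digit given. The means of Cflar were 2.50 ± 0.486 and 2.92 ± 0.0961 (SD, n = 3 each), with a log2 fold change of -0.17 (SE 0.21, 95% interval -0.64 to 0.30, adjusted p = 0.727, limma) and an exact permutation p of 0.1. Cflar and Daxx were the only tested genes of the 10 with means lower in oEV-EMT.

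**Figure D2:**
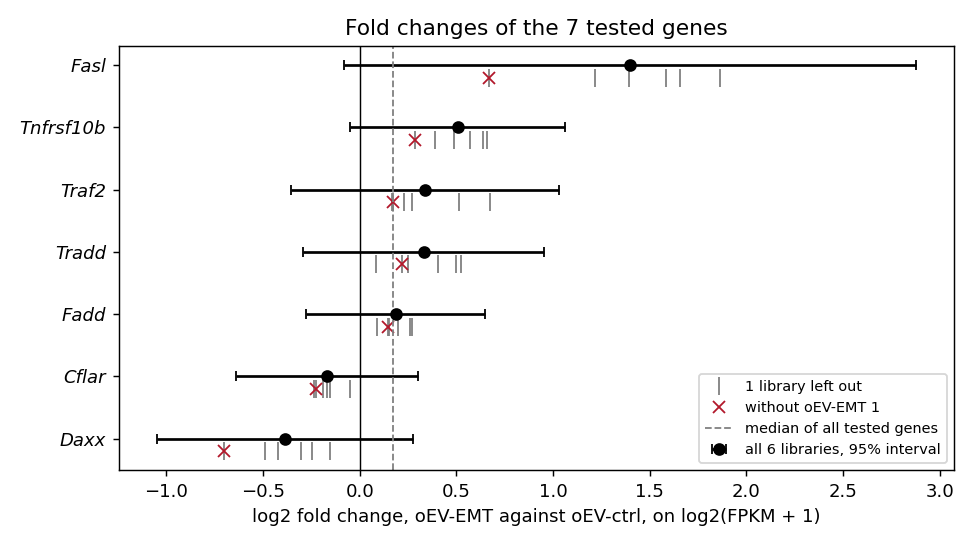
Log2 fold changes of the 7 tested genes, oEV-EMT against oEV-ctrl, on the log2(FPKM + 1) scale, with points and bars for all 6 libraries and their 95% intervals, grey ticks for fits with 1 library left out and red crosses for the fit without oEV-EMT 1. All 7 intervals include 0, and the fit without oEV-EMT 1 moved Fasl from 1.40 to 0.67 and Daxx from -0.39 to -0.70.

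Of the 10 genes, 7 passed the filter and were tested, and 0 of these 7 had an unadjusted p of at most 0.05, against 15.4% of all tested genes. Between the groups, 2 of the 7 did not overlap, Fasl upward and Cflar downward, against 22.4% of all tested genes (18.1% upward and 4.34% downward). The log2 fold change was above 0 for 5 of the 7, against 70.1% of all tested genes, and its median was 0.33 beside 0.17 over all genes. oEV-EMT 1 had the highest value for 6 of the 10 genes, including Fasl, Tnfrsf1a and Tnfrsf10b. Among the 7 tested genes it was highest for 4, against 37.4% of all tested genes. Across 11631 genes, which are not independent, the deviation of oEV-EMT 1 from the other oEV-EMT libraries had a Spearman correlation with transcript length of 0.33, against -0.16 for oEV-EMT 2 and -0.25 for oEV-EMT 3. Deviations within a group are tied to each other, so these negative values are not independent of the positive one. In oEV-ctrl 1 to 3 the correlations were 0.05, -0.04 and -0.01. The part of the general position of oEV-EMT 1 in the values of the 10 genes was not tested. The signs of all 7 fold changes were the same under all scalings and with each library left out. The lowest p of the 7 belonged to Fasl, and the intervals given above show the sizes of change that could not be told from 0.

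The order of the genes by mean FPKM was read within each group, as a rough comparison between genes. In oEV-ctrl, Daxx led at 8.26 ± 1.65 and its range did not overlap that of Tradd, next at 3.81 ± 1.33. Tradd, Traf2 and Cflar then overlapped from neighbour to neighbour, and Cflar lay clear of Fadd. Fadd, Tnfrsf10b, Fasl and Ripk1 followed with overlapping ranges, and the Ripk1 range lay clear of Tnfrsf1a and Fas, which overlapped. In oEV-EMT, Fasl stood second after Daxx, while it was the seventh gene in oEV-ctrl. Without oEV-EMT 1, in an order added after the data were seen, its mean was 2.31 instead of 6.16 and it stood after Daxx, Tradd, Traf2 and Cflar. From Daxx down to Tnfrsf10b all neighbours overlapped in oEV-EMT, and only the steps from Tnfrsf10b to Ripk1 and from Tnfrsf1a to Fas were clear of overlap.

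Differences between partners within a library do not depend on the scaling between libraries except through the pseudocount, and 6 of them were compared. Fasl minus Fas was 3.85, 1.73 and 1.40 in oEV-EMT and 0.52, 1.34 and 0.69 in oEV-ctrl, in log2(FPKM + 1). The ligand was above its receptor in every library, and with the pseudocount of 1 the groups did not overlap. The mean difference between the groups was 1.47 (exact permutation p = 0.1, adjusted p = 0.6 over the 6 comparisons), and it was at most 1.94 and at least 0.71 with 1 library left out. Fasl alone had a log2 fold change of 1.40. Without a pseudocount, the FPKM ratios of Fasl to Fas overlapped, at 438, 19.5 and 24.9 in oEV-EMT and 5.20, 33.0 and 3.95 in oEV-ctrl. Cflar minus Casp8, inhibitor against caspase, was 0.59 ± 0.21 in oEV-EMT and 0.85 ± 0.40 in oEV-ctrl (SD, n = 3 each), and the groups overlapped (exact permutation p = 0.4). Cflar minus Fadd differed by -0.36 between the groups (exact permutation p = 0.2), Ripk1 minus Fadd by -0.24 (p = 0.3, exact), Tradd minus Fadd by 0.14 (p = 0.5, exact) and Traf2 minus Tradd by 0.01 (p = 1, exact). All 6 adjusted p-values were 0.6 or more, and with 3 libraries a group no p below 0.1 was possible.

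**Figure D3:**
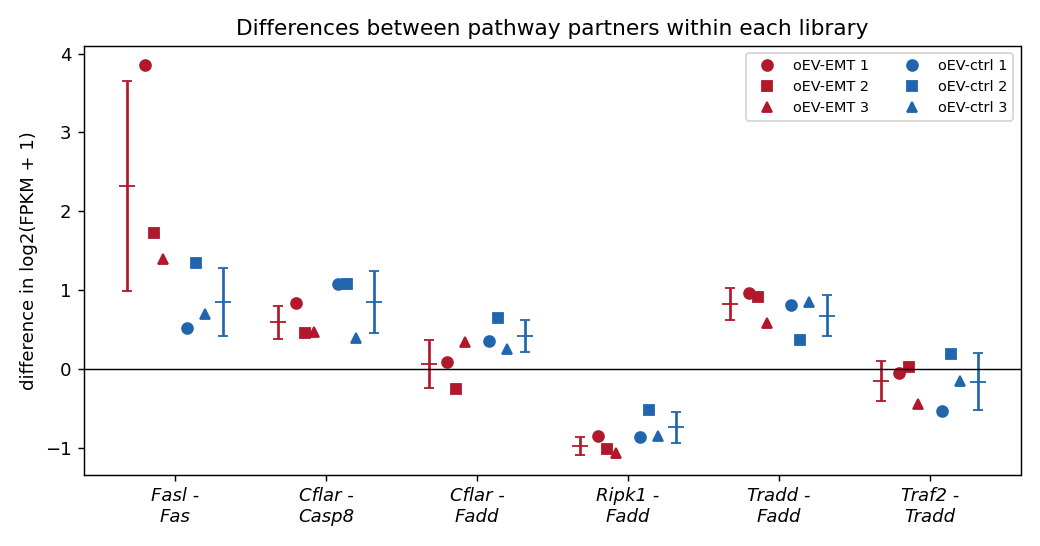
Differences in log2(FPKM + 1) between 6 pairs of pathway partners within each library, with oEV-EMT in red, oEV-ctrl in blue, symbols for single libraries and bars for the mean ± SD (n = 3 each). On this scale only Fasl minus Fas separates the groups, with oEV-EMT 1 at 3.85 far above the other libraries. The plain FPKM ratios of Fasl to Fas overlap, with oEV-ctrl 2 at 33.0 above oEV-EMT 2 and 3 at 19.5 and 24.9.

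A list of 101 further genes of the pathway was read beside the 10, and 56 of them were tested. Of these, 9 were higher in oEV-EMT at an unadjusted p of at most 0.05 and 2 were lower, against 12.8% higher and 2.55% lower over all tested genes, and 0 passed after adjustment, the lowest adjusted p being 0.164 (limma with Benjamini-Hochberg adjustment). The median log2 fold change of the 56 genes was 0.12, below the 0.17 of all genes. Of the 56, 13 did not overlap upward and 2 downward, beside 18.1% and 4.34% of all tested genes. Ier3, 1 of the 9 and of the 13, passed the filter only through oEV-EMT, so it had to differ and lends these counts nothing.

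The other ligands were nearly absent from the table. Tnf, Tnfsf10 (TRAIL) and Tnfsf14 were listed at 0 in all 6 libraries, and the other 4 of the 7 ligands were below 0.5 FPKM throughout, so Fasl was the only ligand of the pathway to be tested. Among 11 further receptors, 2 were tested. Tnfrsf12a (Fn14), the receptor of TWEAK, which has no death domain, was at 9.71, 8.83 and 14.8 FPKM in oEV-EMT and 6.62, 3.63 and 5.48 in oEV-ctrl. The groups did not overlap, and its log2 fold change was 0.95 (SE 0.27, adjusted p = 0.174, limma), the largest of the list. Tnfrsf21, the death domain receptor DR6, was at 1.28 ± 0.607 against 0.777 ± 0.236 (SD, n = 3 each), with overlap and an adjusted p of 0.523.

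Of the TNF receptor complex, 17 of 22 genes were tested and Sharpin alone had an unadjusted p of at most 0.05. Over all tested genes, 12.8% were higher at that p and 18.1% were higher without overlap. Sharpin, a subunit of the linear ubiquitin ligase LUBAC, which stabilises the TNF receptor complex, was at 12.2, 13.4 and 12.1 FPKM in oEV-EMT and 6.83, 7.06 and 7.27 in oEV-ctrl. Both groups were tight and far apart, and the log2 fold change was 0.75 (SE 0.20, adjusted p = 0.164, limma). Rnf31, the catalytic subunit of the same ligase, was at 1.84 ± 0.469 against 1.17 ± 0.188 without overlap, and Ikbkb, a kinase that releases NF-κB, was at 7.37 ± 1.85 against 4.68 ± 0.673 (SD, n = 3 each), also without overlap. Their adjusted p-values were 0.406 and 0.327 (limma). Rbck1, a further LUBAC subunit named after its values were seen, was at 4.03 ± 0.431 against 3.69 ± 0.284 (SD, n = 3 each). Its groups overlapped, with a log2 fold change of 0.10 (adjusted p = 0.846, limma). Of the exonic bases of Rnf31, 123 also belong to Irf9 on the same strand. Irf9 was at 3.09 to 3.38 in oEV-EMT and 0.387 to 2.33 in oEV-ctrl, and its part in the Rnf31 values was not tested.

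Downstream of the receptors, the initiator caspase overlapped between the groups. Casp8, the initiator at the Fas complex, was at 1.10, 1.13 and 1.74 FPKM in oEV-EMT and 0.799, 0.895 and 1.98 in oEV-ctrl, with oEV-ctrl 3 the highest. Its log2 fold change was 0.09 (SE 0.25, 95% interval -0.46 to 0.64, adjusted p = 0.882, limma), and the sign turned under median-of-ratios and upper quartile scaling and without oEV-EMT 3, oEV-ctrl 1 or oEV-ctrl 2.

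The mitochondrial arm, which amplifies death receptor signals, had members on both sides. Bid, the BH3 protein that caspase-8 cleaves, was at 6.55, 6.35 and 6.09 FPKM in oEV-EMT and 3.17, 3.30 and 4.69 in oEV-ctrl, without overlap (log2 fold change 0.65, SE 0.22, adjusted p = 0.222, limma). Bax, which permeabilises the outer membrane, was at 113, 146 and 105 against 80.9, 44.9 and 88.7, also without overlap (log2 fold change 0.80, SE 0.27, adjusted p = 0.222, limma). Cycs, the cytochrome c that is then released, was lower, at 263 ± 55.6 against 374 ± 42.1 (SD, n = 3 each), with a log2 fold change of -0.52 (adjusted p = 0.279, limma). Cycs was named after its values were seen, and 26.1% of its 50-base stretches are shared with other genes, so its reads may be split. Bid shares 17.7% of its exonic bases with Bcl2l13 on the opposite strand, whose values overlapped between the groups.

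Necroptosis genes were low. Ripk3, the kinase that RIPK1 engages, was at 3.52, 1.94 and 1.69 FPKM in oEV-EMT and 1.27, 1.64 and 1.16 in oEV-ctrl, without overlap (log2 fold change 0.49, SE 0.24, adjusted p = 0.370, limma). Mlkl, the executioner of necroptosis and substrate of RIPK3, was at 0.0807 ± 0.0446 against 0.288 ± 0.166 (SD, n = 3 each), under the filter (exact permutation p = 0.2). Zbp1 and Ticam1, a nucleic acid sensor and an adaptor that also engage RIPK3, had adjusted p-values of 0.807 and 0.876 (limma).

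Among 9 tested modulators of death receptors, Dedd and Casp8ap2 stood on opposite sides. Dedd, a death effector domain protein, was at 26.1, 27.6 and 25.4 FPKM in oEV-EMT and 12.9, 11.2 and 21.6 in oEV-ctrl, without overlap (log2 fold change 0.81, SE 0.26, adjusted p = 0.201, limma). Of its exonic bases, 36.4% overlap Nit1 on the opposite strand, which was at 12.1 to 14.9 in oEV-EMT and 9.61 to 11.6 in oEV-ctrl, and the part of Nit1 in the Dedd values was not tested. Casp8ap2 (FLASH), known as a caspase-8 associated protein and for histone mRNA processing, was at 4.96, 5.54 and 5.22 against 6.97, 8.21 and 10.5, lower without overlap (log2 fold change -0.60, SE 0.22, adjusted p = 0.253, limma). Faim, an inhibitor of Fas-induced apoptosis, was at 24.2 ± 3.21 against 33.6 ± 7.39 (SD, n = 3 each) with overlap and an adjusted p of 0.382.

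Of the 7 tested partners of Daxx, Pml had an unadjusted p of at most 0.05, while 12.8% of all tested genes were higher at that p and 18.1% without overlap. Pml, the scaffold of the nuclear bodies in which DAXX resides, was at 4.27, 2.29 and 1.98 FPKM in oEV-EMT and 0.946, 0.928 and 1.65 in oEV-ctrl, without overlap (log2 fold change 0.79, SE 0.27, adjusted p = 0.219, limma). H3f3a, which encodes histone H3.3, and Usp7, a deubiquitinase, had log2 fold changes of 0.21 and 0.28 with adjusted p-values of 0.661 and 0.717 (limma). H3f3b, a further H3.3 gene named after its values were seen, was at 904 ± 270 against 996 ± 161 FPKM (SD, n = 3 each). Its groups overlapped, with a log2 fold change of -0.18 (adjusted p = 0.764, limma) whose sign turned without oEV-EMT 1. Usp7 was at 37.9 in oEV-EMT 1 and between 14.2 and 19.1 in the other 5 libraries, and its sign turned without oEV-EMT 1.

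Of the 5 tested NF-κB and JNK genes, Nfkbib had an unadjusted p of at most 0.05, beside 12.8% of all tested genes higher at that p. Nfkbib, an inhibitor of NF-κB, was at 18.5, 17.6 and 12.1 FPKM in oEV-EMT and 11.1, 7.17 and 12.0 in oEV-ctrl, barely without overlap (log2 fold change 0.62, SE 0.26, adjusted p = 0.293, limma). Of its exonic bases, 1.94% overlap Sirt2 on the opposite strand, which was itself at 12.6 to 19.3 in oEV-EMT and 4.64 to 10.3 in oEV-ctrl. Nfkbia, the classical inhibitor and itself an NF-κB target, was at 6.53 ± 2.92 against 4.02 ± 0.655 (SD, n = 3 each) with overlap, and Mapk8 (JNK1) at 1.31 ± 0.454 against 1.73 ± 0.290. Ier3, an early response gene, was at 1.42, 1.38 and 1.25 against 0.636, 0.171 and 0.980. All its oEV-ctrl values were under the filter of 1, so this separation is partly set by the filter and is given as a description only. Of 14 TNF-induced genes, 3 were tested, and the other 2, Sod2 and Il6, had log2 fold changes of -0.15 and -0.12 (adjusted p = 0.727 and 0.877, limma). The sign of Il6 turned without oEV-ctrl 1. Reads of Sod2 and H3f3a may also be split, since 21.04% and 16.4% of their 50-base stretches occur in other genes.

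**Figure D4:**
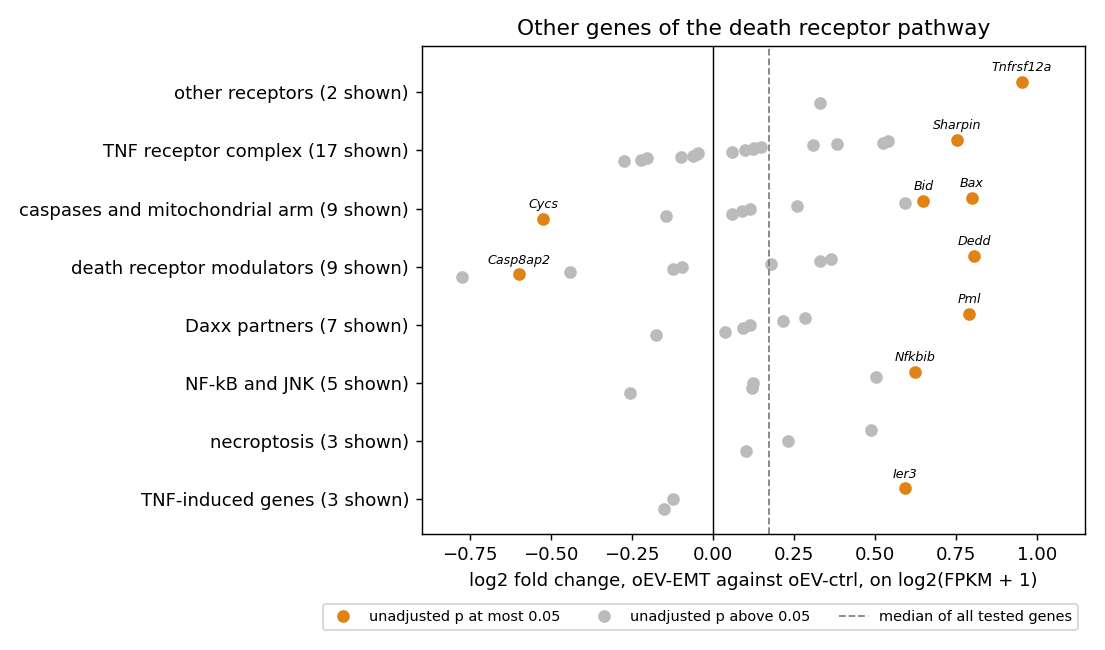
Log2 fold changes of tested genes of the further pathway list by role, oEV-EMT against oEV-ctrl, on the log2(FPKM + 1) scale, with orange points for an unadjusted p of at most 0.05 and a dashed line at the median of all tested genes, 0.17. The orange points on the right run from 0.59 for Ier3, which passed the filter only through oEV-EMT, to 0.95 for Tnfrsf12a, the 2 on the left are Casp8ap2 and Cycs, and none passed after adjustment.

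Trp53, the transcription factor p53, which is known to induce death receptor genes, was at 49.98, 25.9 and 22.7 FPKM in oEV-EMT and 10.3, 10.9 and 17.6 in oEV-ctrl. The groups did not overlap, and the log2 fold change was 1.23 (SE 0.32, adjusted p = 0.164, limma). As with Fasl, oEV-EMT 1 had the highest Trp53 value, and the study named this gene on these libraries too. By real-time RT-PCR, whose data are not analysed here, the study also reported Trp53 and Fasl as significantly upregulated with oEV-EMT. Its targets Cdkn1a and Mdm2 had log2 fold changes of 0.52 and 0.06 (adjusted p = 0.438 and 0.948, limma), that of Mdm2 changing sign under median-of-ratios and upper quartile scaling and without oEV-EMT 1 or oEV-ctrl 2.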

How the data were processed

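RNA of 6 pools of 10 blastocysts, 3 per group, had been sequenced after poly(A) selection. The authors used StringTie with mm10, per the labels, and the aligner is not given in the sources used here. They deposited 1 value per gene and library, for 55774 entries, of which 55487 carry an Ensembl identifier and 55141 matched GENCODE M21. The methods speak of TPM, but the deposited values sum to more than 1000000 and to different totals, so they were read as FPKM. No count model was run on them, and their read depth is unknown apart from an uncertain estimate of its ratio between libraries.

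The 11924 genes that reached an FPKM of 1 in 3 or more libraries were fitted as log2(FPKM + 1) by limma 3.58.1 in R 4.3.3, using its trend and robust options. Adjustment by the Benjamini-Hochberg method ran over all of them. A fold change on that scale understates the change of low genes. A gene passed with an adjusted p up to 0.05 and a log2 fold change of 1 or more in either direction. For single values, exact permutation tests (two-sided) were run over the libraries. The genes named were the 10, up to 3 genes of lowest p in each role of the pathway list, 6 fixed genes (Casp8, Ripk3, Mlkl, Tnf, Tnfsf10 and Trp53) and the 5 most like Fasl. Another gene that this rule names is not reported here. The genes and lists were chosen with earlier results of these data known. Motifs and primers were searched in RefSeq promoter windows and GENCODE M21 transcripts. Alternatives were other scalings, pseudocounts, filters and variance settings, fits with 1 library removed and a fit with a replicate block. Plots were made in Python 3.11.15 (matplotlib 3.10.9).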

Additional observations from a re-analysis of the deposited data

How the results depend on the processing

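The signs of the 7 tested fold changes were kept in all 10 alternatives and all 6 fits without 1 library, and none of these 7 passed an adjusted p of 0.05 in any. Fasl ranged from 1.24 to 1.93 over the alternatives and from 0.67 to 1.87 over the fits without 1 library. The count of the 10 genes at an unadjusted p of at most 0.05 was 1 instead of 0 with a pseudocount of 0.1, with 0.5 and without trended and robust variance, each time Fasl, and it ranged from 0 to 3 with 1 library left out (2 without oEV-EMT 1, namely Fasl and Daxx, 3 without oEV-EMT 3, namely Fasl, Tnfrsf10b and Traf2, and 1 without oEV-ctrl 3, Tnfrsf10b). Over all genes, the number past both thresholds ranged from 0 to 16 with 1 library left out (4 without oEV-EMT 1, 1 without oEV-EMT 3 and 16 without oEV-ctrl 3) against 0. The pathway genes higher ranged from 5 (without oEV-ctrl 2) to 11 with 1 library left out, and those lower from 1 to 3, and were 4 after upper quartile scaling and 0 after scaling to a sum of 1000000, over all entries or annotated genes. The between-group difference in Traf2 minus Tradd turned to -0.0044 with a pseudocount of 0.1, and ranged from -0.18 to 0.18 with 1 library left out (-0.05 without oEV-EMT 1, -0.08 without oEV-EMT 2, -0.18 without oEV-ctrl 1), and that in Tradd minus Fadd from -0.0070 (without oEV-ctrl 2) to 0.26. The median of all genes was 0.01 after median-of-ratios and -0.0033 after upper quartile scaling. The labels number the replicates in both groups, but the deviations of same-numbered libraries were hardly correlated (r = 0.12, -0.04 and 0.04). Combinations of unlike numbers ran from -0.13 to 0.12. With 3 libraries a group, this check cannot settle whether the numbers pair the libraries. With a replicate block, 21 genes passed both thresholds, 0 of the 10 genes had an unadjusted p of at most 0.05, and Fasl had an adjusted p of 0.425 (limma). The causes of these shifts were not tested. FPKM limit what can be said of low genes such as Fas, since the reads behind each value are unknown.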

Other observations

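With every gene above 0 in at least 1 library kept, 31842 genes were tested, and the 3 genes under the main filter had log2 fold changes of -0.08 for Fas (SE 0.08, adjusted p = 0.741), 0.18 for Tnfrsf1a (SE 0.23, adjusted p = 0.775) and -0.05 for Ripk1 (SE 0.17, adjusted p = 0.915) in limma.

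Mice carry decoy receptors for TRAIL, which bind the ligand without passing on a death signal, and these were named after their values were seen. Tnfrsf22 was at 2.44, 0.718 and 1.30 FPKM in oEV-EMT and 0.629, 0.419 and 0.592 in oEV-ctrl, without overlap and with oEV-EMT 1 highest (exact permutation p = 0.1). Tnfrsf23 was at 0.482, 0.567 and 0.333 against 0.428, 0.0784 and 0.403, with overlap (exact permutation p = 0.4). Neither passed the filter of the fit, and TRAIL itself was listed at 0 in all 6 libraries.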
